A study of Homo sapiens with 12 samples.

Results

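The long arm of chromosome 7, 7q, held 3044 of the 89076 H3K27ac regions mapped in the renal carcinoma line Caki-1 and a cabozantinib-resistant derivative of it. A region joins all peaks of the 4 H3K27ac libraries that shared 1 bp or more. The 7q regions were chosen by the positions of their peaks, as those that start at 61 Mb or beyond on chromosome 7 in hg19. The arm was read in 3 sections. The proximal one (232 regions) runs from 61 to 75 Mb, the middle one (920 regions) goes on from there, and the distal one (1892 regions), whose first region is chr7:105028400-105029842, contains the receptor gene MET. In the middle section many more regions were lost than gained in the resistant line, 96 against 5, whereas the distal section held 75 gained and 66 lost regions. RNA, whose values the rule for regions did not use, was lower in the resistant line for most genes of the proximal and middle sections. The median log2 fold changes there were -0.38 and -0.33, and in the distal section -0.04, near the median of all genes. The sections were chosen with earlier results of these data known.

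Caki-1 is an established cell line from a human kidney carcinoma, and cabozantinib inhibits several receptor kinases, MET and AXL among them. The resistant cells had been selected in McCoy's 5A medium, starting at 5 µM cabozantinib and reaching 20 µM over 2 months, and were then held in 10 µM. The parental cells grew in RPMI 1640 without a stated drug, so drug, medium and selection history differ together between the lines. Each line gave 2 H3K27ac libraries, 2 RNA libraries and 2 DNA inputs, and the 4 inputs among the 12 samples were not analysed here. Nothing says that replicates were separate cultures or that more than 1 resistant derivative was made, so p-values cover only the spread between these libraries.

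H3K27ac, acetylation of lysine 27 of histone H3, marks active promoters and enhancers, and wide stretches of it often cover strongly transcribed genes. The arm carries genes of several kinds that bear on a renal tumour line under a kinase inhibitor. MET encodes the receptor for hepatocyte growth factor, whose own gene HGF lies on the same arm, ABCB1 encodes the drug efflux pump P-glycoprotein, TFPI2 encodes a protease inhibitor of the matrix, and IRF5 and SHH encode an interferon regulatory factor and the ligand sonic hedgehog.

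The promoters of 4 genes on which the RNA results turn are given first, because they show how unlike annotated start sites of 7q genes can be. RNA was compared by counts over whole genes and not by start site. A gene can have further annotated starts that are not shown, and where the measured RNA begins was not tested. MET stands at the position named for the arm, TFPI2 and ABCB1 fell and IRF5 rose in the resistant line. Each run holds 250 bases before and 50 bases after the annotated start, 5′ to 3′ on the gene's own strand of chromosome 7 (plus for MET and IRF5, minus for TFPI2 and ABCB1), from RefSeq on GRCh38.p14. Capitals mark the letters TGANTCA (an AP-1 site), ACGTG (the core of a hypoxia response element) and GGGCGG (a GC box), each read on both strands, with flanking capitals where matches on the 2 strands or neighbouring matches overlap or adjoin.
MET: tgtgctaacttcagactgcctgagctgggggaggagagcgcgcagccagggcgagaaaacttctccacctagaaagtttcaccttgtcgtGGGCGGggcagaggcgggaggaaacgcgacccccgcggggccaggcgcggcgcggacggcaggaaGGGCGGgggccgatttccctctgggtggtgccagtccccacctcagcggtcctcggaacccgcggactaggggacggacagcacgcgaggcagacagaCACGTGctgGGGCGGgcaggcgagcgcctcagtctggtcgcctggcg
TFPI2: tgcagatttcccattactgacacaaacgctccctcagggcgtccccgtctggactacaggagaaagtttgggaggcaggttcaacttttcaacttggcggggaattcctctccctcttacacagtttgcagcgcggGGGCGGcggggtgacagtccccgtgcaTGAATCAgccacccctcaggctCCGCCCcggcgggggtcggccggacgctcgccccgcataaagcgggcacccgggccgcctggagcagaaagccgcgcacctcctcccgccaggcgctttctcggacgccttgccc
ABCB1: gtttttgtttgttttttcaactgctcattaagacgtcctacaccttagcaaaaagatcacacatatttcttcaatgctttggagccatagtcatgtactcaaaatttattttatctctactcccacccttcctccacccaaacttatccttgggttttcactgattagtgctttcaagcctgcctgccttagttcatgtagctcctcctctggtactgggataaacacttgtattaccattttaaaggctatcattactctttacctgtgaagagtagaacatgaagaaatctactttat
IRF5: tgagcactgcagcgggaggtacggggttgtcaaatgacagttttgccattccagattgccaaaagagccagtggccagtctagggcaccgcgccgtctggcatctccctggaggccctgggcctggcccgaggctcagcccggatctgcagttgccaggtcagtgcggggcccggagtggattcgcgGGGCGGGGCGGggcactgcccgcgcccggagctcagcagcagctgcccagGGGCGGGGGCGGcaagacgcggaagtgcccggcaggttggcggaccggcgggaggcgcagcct

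The MET promoter held 3 GC boxes and a CACGTG, which counts as 1 match to ACGTG on each strand, in 300 bases with 30 CG dinucleotides. The TFPI2 promoter held 1 AP-1 match, TGAATCA, between 2 GC boxes, and 26 CG dinucleotides. Its middle base is A and not the C or G of the usual AP-1 site, so the match is a loose one. The IRF5 promoter held 4 GC boxes in 2 pairs, 1 overlapping and 1 adjoining. The ABCB1 window held no match to any of the 3 motifs and 1 CG dinucleotide. Only the first listed start of each gene was taken, so the ABCB1 window need not be the main promoter of that gene. Of 35116 promoters of this length, 7.71% held an AP-1 match, 21.4% an ACGTG match and 45.0% a GC box. Of 487 promoters of the tested 7q genes, 5.34% held an AP-1 match, 23.0% an ACGTG match and 65.9% a GC box. Those genes had passed a filter on low counts and the 35116 promoters were not so filtered. The 2 sets are therefore unlike, and their difference cannot be read as a trait of 7q. These matches describe letters in a window and say nothing of which factors bind there.

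Gained, lost and shared regions are described without a test, because the peaks themselves define them. A gained region had a peak in both resistant libraries and in neither parental one, a lost region the reverse, and a shared region had a peak in all 4. Over all 89076 regions 3.43% were gained and 3.92% lost. On 7q, 81 regions (2.66%) were gained, 173 (5.68%) were lost and 640 (21.0%) were shared. The proximal section had 1 gained (0.431%) and 11 lost regions (4.74%), the middle section 5 gained (0.543%) and 96 lost (10.4%), and the distal section 75 gained (3.96%) and 66 lost (3.49%). The short arm of the same chromosome, 7p, ran the other way, with 172 gained (7.51%) and 17 lost (0.742%) of 2290 regions. The series has no measure of DNA content that was used here, so a different number of 7q copies and a different level of the mark per copy cannot be told apart, and in bulk libraries neither can fewer marked cells and less mark per cell.

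**Figure D1:**
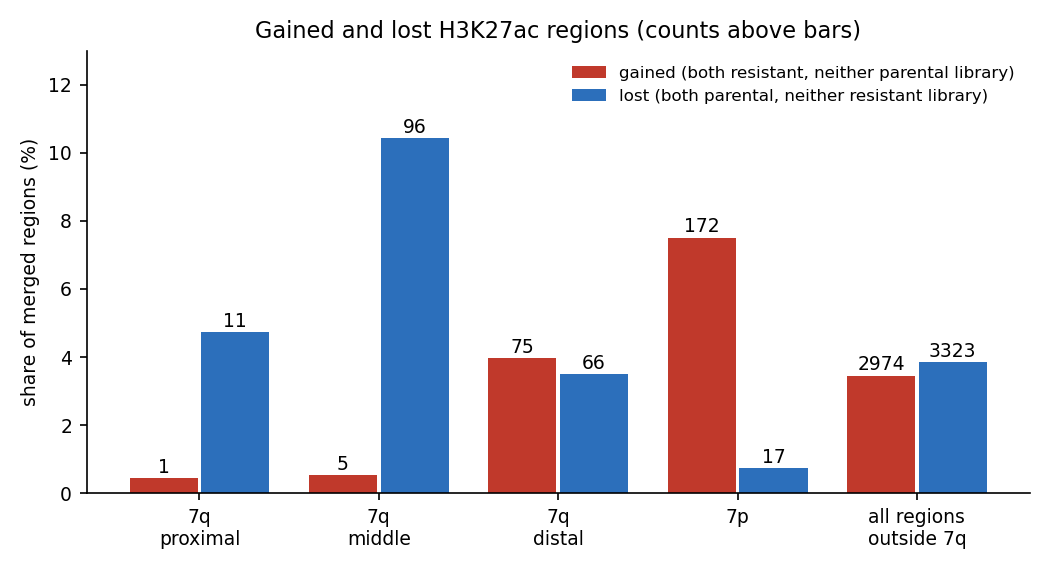
Share of merged H3K27ac regions (y axis, percent) that were gained or lost in the resistant line, for the proximal, middle and distal sections of 7q, for 7p and for all regions outside 7q, with counts above the bars. Lost regions reach 10.4% in the middle section, where gained regions make up 0.543%, and 7p shows the opposite order.

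The loss was spread along the middle section and did not come from 1 cluster. In bins of 5 Mb counted from the centromere, lost regions outnumbered gained ones in each of bins 2 to 9. The lost regions numbered 4, 7, 22, 23, 1, 25, 7 and 18 in these bins, and the gained ones 0, 1, 2, 1, 0, 0, 2 and 0. Bin 6, with 1 lost region, held only 28 regions in all. Past the section limit there were 2 gained and 10 lost regions in bin 10, but 3 gained and 3 lost in bin 11. Bin 12, which holds MET, had 9 gained and 12 lost, and bin 13 had 2 gained and 7 lost. Gained regions were most numerous in bin 14, at 18 against 7 lost, and in bin 19, at 14 against 1 lost. Split at 125 Mb, a point chosen after the values were seen, the distal section had 16 gained (2.57%) and 32 lost (5.14%) of 622 regions before it, and 59 gained (4.65%) and 34 lost (2.68%) of 1270 regions after it.

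**Figure D2:**
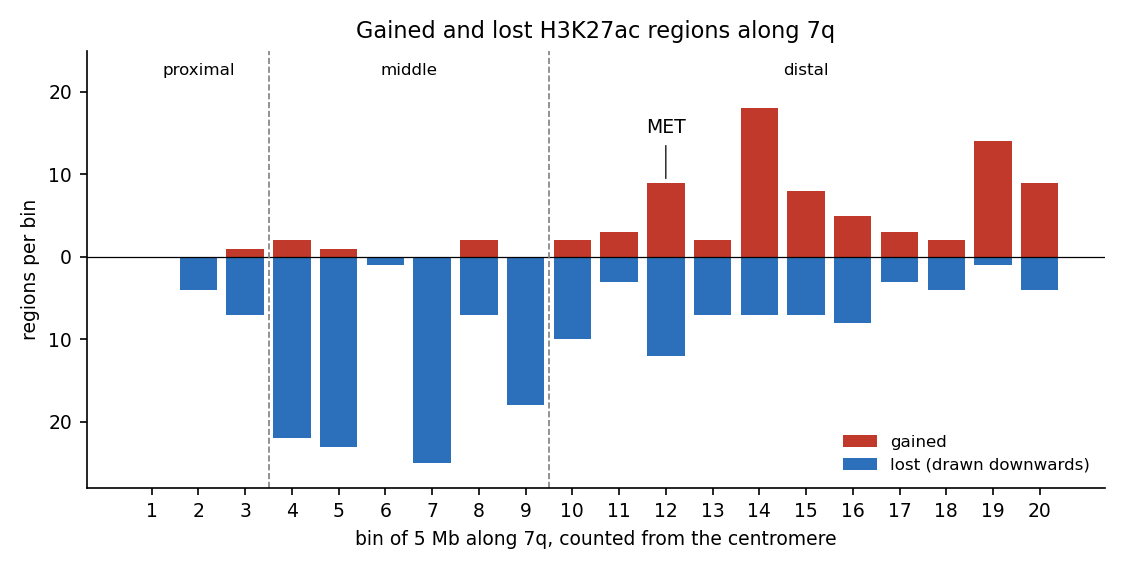
Number of gained (drawn upwards) and lost (drawn downwards) H3K27ac regions in each bin of 5 Mb along 7q, counted from the centromere, with dashed lines between the proximal, middle and distal sections and the bin of MET marked. Lost regions dominate bins 2 to 9, and gained regions are most numerous in bins 14 and 19.

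These counts rest on 2 libraries a line and on where each library's peaks were called. Without resistant replicate 1 the middle section had 35 gained and 110 lost regions, and without resistant replicate 2 it had 55 and 186. Without parental replicate 1 it had 20 and 345, and without parental replicate 2 it had 22 and 258, so losses outnumbered gains there with any library left out. The distal section changed order with the line that lost a library. It had 284 gained and 80 lost regions when resistant replicate 1 was left out, 367 and 184 without resistant replicate 2, 99 and 482 without parental replicate 1, and 141 and 250 without parental replicate 2. In the proximal section the counts were 9 and 13, 35 and 25, 3 and 52, and 7 and 55 in the same order. With 1 library left in a line the definition is looser by construction, and all these counts hold more regions found in a single library. Leaving out a resistant library lets 1 peak define a gain, and leaving out a parental one lets 1 peak define a loss. The settings without a parental library were thus tilted towards losses in advance, and those without a resistant library towards gains. Shares over all regions were not taken under these settings.

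Of the 7q regions 2150 (70.6%) were held by other combinations of libraries, against 70.7% over all regions. In 1 library only were found 1569 (51.5%) of all 7q regions. In the middle section resistant replicate 1 alone held 41 of these, resistant replicate 2 alone 30, parental replicate 1 alone 131 and parental replicate 2 alone 246. In the distal section the same counts were 246, 202, 148 and 410. Parental replicate 2 thus held the most regions of its own in both sections. A further 200 regions of 7q (6.57%), of which 86 lay in the middle section, were missing from resistant replicate 1 alone. Such patterns of single libraries were not counted over all regions, so they cannot be read as traits of 7q or of its middle section.

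Peak lists per library give the same picture without merging. The middle section held 362 peaks (0.691% of the list) in resistant replicate 1 and 422 (0.798%) in resistant replicate 2, against 648 (1.18%) in parental replicate 1 and 702 (1.21%) in parental replicate 2. Those peaks covered 289.9 and 608 kb in the resistant libraries, against 648 and 1015 kb in the parental ones, and made up 0.631% and 0.700% of all covered bases, against 1.15% and 1.19%. Both resistant libraries lay below both parental ones by each of these measures. In the distal section the shares of peaks overlapped, at 2.29% and 2.05% in the resistant line and 2.00% and 2.20% in the parental line. The proximal section held 0.265% and 0.236% of peaks in the resistant line and 0.312% and 0.278% in the parental line. Lists held 52367 and 52856 peaks in the resistant line and 54810 and 57975 in the parental line, with median widths of 604 and 1041 bp and of 674 and 924 bp, so that replicate 1 had the narrower peaks in both lines.

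Regions also differed in width and setting by class. Median widths on 7q were 979 bp for gained, 1013 bp for lost and 2724 bp for shared regions, close to the medians of 984, 1016 and 2689 bp over all regions. Gained regions of 7q lay at a median distance of 9699 bp from the nearest shared region, and lost ones at 21979 bp, against 11975 and 14458 bp over all gained and all lost regions. Within 5 kb of a shared region lay 27 (33.3%) of the gained and 38 (21.97%) of the lost 7q regions, compared with 32.5% and 30.5% over all regions. The lost regions of the middle section lay at a median of 25857.5 bp, with 18 (18.8%) within 5 kb of a shared region, and those of the distal section at 19114.5 bp, with 19 (28.8%).

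By the weaker of their 2 scores, the strongest lost region of the whole series lay in the middle section. This region, chr7:102244002-102245247, had no peak in either resistant library and scores of 44.4 and 37.3 in the parental ones. The score is the authors' value for each peak, and its unit is not given. Raw scores were set side by side between libraries to find the weaker one, whereas the ranks below use order within a library. Over all shared regions the median score was 10.7 and 18.8 in the resistant libraries and 13.8 and 13.3 in the parental ones. The order of the strongest regions, and the alternative with scores from 5 up, can therefore depend on each library's scale. The next strongest lost region of the section, chr7:90010900-90015445, was 4546 bp wide and scored 19.5 and 26.8 in the parental libraries. The next, chr7:102147954-102148388, scored 12.8 and 16.8. No resistant library had a peak in any of these 3 regions. The strongest of the 5 gained regions of the section, chr7:82892728-82893744, scored 7.99 and 6.88 in the resistant libraries, and the next, chr7:97924309-97925307, scored 5.68 and 4.98. A gained region at chr7:98968383-98968752 scored 6.22 and 3.83.

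In the proximal section the only gained region, chr7:74046521-74047373, scored 4.31 and 2.78 in the resistant libraries. The strongest lost ones there were chr7:72473310-72473888, with 9.61 and 16.1 in the parental libraries, chr7:73983046-73984745, with 9.48 and 14.2, and chr7:74991406-74992048, with 14.1 and 8.66. In the distal section the strongest gained regions were chr7:128548723-128552238, with 13.7 and 11.2 in the resistant libraries, chr7:138288734-138290314, with 11.8 and 11.1, and chr7:134119658-134120682, with 9.60 and 9.28. The strongest lost regions of the distal section were chr7:113435776-113438365, with 11.3 and 9.02 in the parental libraries, chr7:135615014-135616918, with 8.45 and 12.1, and chr7:116368679-116369434 near MET, with 8.28 and 10.9. The median weaker score of lost regions was 6.59, 4.98 and 3.91 in the proximal, middle and distal sections, against 4.12 over all lost regions, and that of gained regions in the distal section was 4.45, against 4.31 over all gained regions.

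Few gained or lost regions stood in runs. Of the gained ones 74 and of the lost ones 138 had no neighbour of their own class. The longest run of lost regions held 4 of them in 10.5 kb at chr7:81305523-81315990, and 3 further runs of 3 lost regions, at chr7:92359016-92364392, chr7:93933709-94006720 and chr7:104688293-104701493, also lay in the middle section. The longest run of gained regions held 3 in 125 kb at chr7:125077559-125202594, in the distal section.

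At the limits of the sections the members read as follows. The last region before 61 Mb, chr7:56172740-56174818 on 7p, was shared, with scores of 32.6 and 47.4 in the resistant and 19.5 and 22.3 in the parental libraries, and the first past it, chr7:64022937-64023352, had a peak in parental replicate 1 alone (6.54). The last before 75 Mb, chr7:74992610-74992992, was also held by parental replicate 1 alone (7.19), and the first past it, chr7:75044033-75045590, was shared, with 3.67 and 6.22 in the resistant and 8.28 and 7.23 in the parental libraries. The last of the middle section, chr7:104994083-104994402, was held by parental replicate 1 alone (3.38), and the first of the distal one, chr7:105028400-105029842, was shared, with 9.62 and 7.55 in the resistant and 8.45 and 5.43 in the parental libraries.

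Shared regions, which no loss or gain of a peak defines, were compared by rank. The score of each shared region, the highest of its peaks in a library, was ranked among the 19572 regions shared by all 4 libraries, from 0 for the lowest to 100 for the highest. In the middle section the median ranks were 48.7 and 41.5 in the resistant libraries, against 62.5 and 57.8 in the parental ones. In the proximal section they were 52.6 and 44.1, against 61.2 and 53.8, and in the distal section 48.0 and 54.1, against 52.7 and 58.7. The lines did not overlap in the proximal and middle sections and did in the distal one. On 7p the ranks were 71.9 and 70.2 in the resistant libraries, against 40.4 and 46.6 in the parental ones, the reverse order. The median over shared regions of the difference in mean rank was -8.07 in the proximal, -12.2 in the middle and -0.98 in the distal section, against 17.1 on 7p and 0.26 outside 7q.

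Counted region by region, both resistant ranks lay below both parental ranks in 18.8% of all shared regions, and above both in 18.6%. In the middle section 77 of 179 shared regions (43.0%) were lower in this sense and 6 (3.35%) higher. In the proximal section 18 of 63 (28.6%) were lower and 5 (7.94%) higher. The distal section was even, with 77 of 398 (19.3%) lower and 77 (19.3%) higher, both close to the shares over all regions, and 7p had 11 of 499 (2.20%) lower and 267 (53.5%) higher. Before 125 Mb the distal section had 32 of 127 (25.2%) lower and 13 (10.2%) higher, and after it 45 of 271 (16.6%) lower and 64 (23.6%) higher. Since the peaks also chose these regions, the ranks are a description and were not tested.

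**Figure D3:**
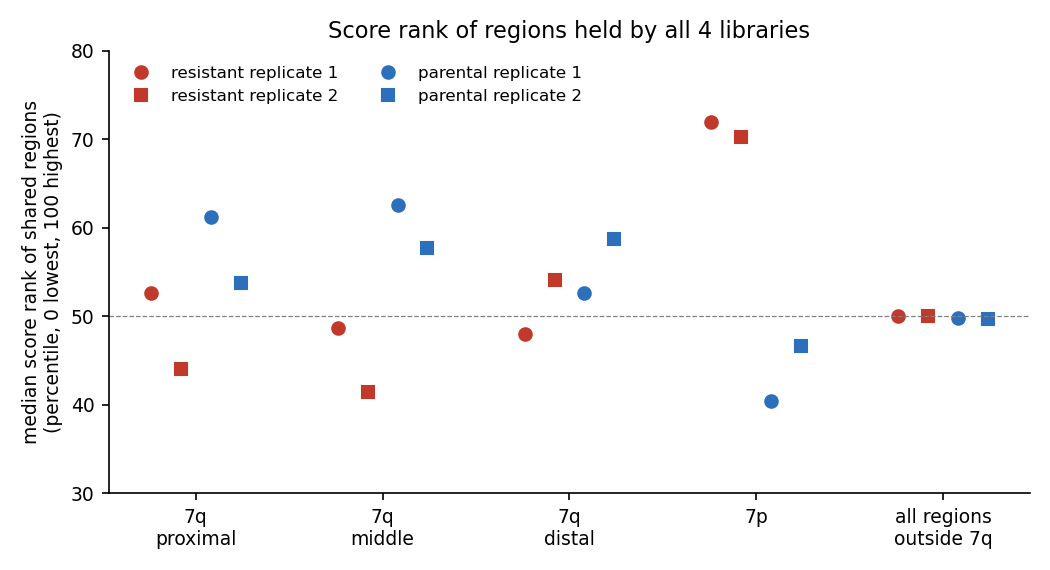
Median score rank (y axis, percentile from 0 to 100 among regions shared by all 4 libraries) of the shared regions in the 3 sections of 7q, on 7p and outside 7q, 1 point per library, with a dashed line at 50. Both resistant libraries lie below both parental ones in the proximal and middle sections, and above them on 7p. In the distal section resistant replicate 1 lies below both parental libraries and resistant replicate 2 between them.

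The 3 strongest shared regions of each section, taken by their weakest score, were set side by side by rank. In the proximal section chr7:74070623-74080282 ranked at 92.8 and 91.2 in the resistant libraries, against 88.7 and 88.7 in the parental ones. The next, chr7:72969433-72973459, ranked at 90.9 and 94.6, against 96.8 and 96.3, and chr7:73587919-73589830 at 84.4 and 66.3, against 95.4 and 83.9. Both resistant ranks were thus higher in the first, both lower in the next, and the lines overlapped in the last. In the middle section chr7:99612963-99614233 ranked at 98.4 and 94.1 in the resistant libraries, against 99.0 and 92.1 in the parental ones, chr7:104648953-104657170 at 91.5 and 98.8, against 97.1 and 99.02, and chr7:97910547-97917762 at 89.8 and 73.0, against 81.8 and 94.0. The lines overlapped in all 3. In the distal section chr7:134852538-134859041 ranked at 99.5 and 99.1 in the resistant libraries, against 99.2 and 99.8 in the parental ones, and chr7:137551930-137579707, 27778 bp wide, at 98.7 and 99.5, against 97.9 and 99.7. The lines overlapped in both of these, whereas chr7:143076095-143080506 ranked higher in both resistant libraries, at 99.1 and 99.1, against 95.3 and 98.4. So did the widest region of the arm, chr7:130577255-130614312, which spanned 37058 bp, was the 14th widest of all and ranked at 98.7 and 98.8, against 97.9 and 96.4.

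The surroundings of MET carried H3K27ac in both lines, and no other window was measured for comparison. Within 150 kb on either side of the position taken for MET there were 51 regions, of which 2 were gained, 5 lost, 21 shared and 23 held by other combinations of libraries, and the shared ones covered 55.3% of the window. The region chr7:116310914-116321981, 11068 bp wide, scored 47.8 and 84.0 in the resistant libraries and 50.2 and 41.0 in the parental ones, and ranked at 98.4 and 98.1, against 95.8 and 94.4. It was the only shared region of the window that ranked higher in both resistant libraries. Next to it chr7:116323184-116358447, 35264 bp wide and the 18th widest of all, scored 19.6 and 40.6 in the resistant and 40.2 and 34.1 in the parental libraries, and ranked at 79.99 and 84.7, against 92.1 and 90.5. In all, 11 of the 21 shared regions ranked lower in both resistant libraries. Over all shared regions 18.8% ranked lower and 18.6% higher in this sense, and over all regions 3.43% were gained and 3.92% lost.

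The largest drop in rank among the 21 shared regions lay on the centromere side of MET. The region chr7:116221560-116226479 scored 3.31 and 3.47 in the resistant libraries, against 16.6 and 18.8 in the parental ones, and its ranks were 3.84 and 1.35, against 59.1 and 67.8. Its neighbour chr7:116209545-116218678 ranked at 7.05 and 37.99, against 70.2 and 68.6. Both resistant ranks lay below both parental ones in each. The 2 gained regions of the window were chr7:116301597-116302873 with scores of 2.65 and 6.16 and chr7:116388069-116389206 with 4.33 and 3.73 in the resistant libraries. The genes at these regions are not named, because no annotation of hg19 was used here.

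RNA of 7q genes was compared next. The rule for the regions used no RNA value, but the sections and gene lists were chosen with earlier results of these data known. The resistant libraries held 14664723 and 12851393 estimated counts and the parental ones 10605113 and 10584083. Mitochondrial genes took 7.72% and 9.57% of counts in the resistant line, against 5.08% and 5.20% in the parental line, and their part in the results was not tested. Of the kidney tubule markers, PAX8, a transcription factor of renal epithelium, had 352 and 427 CPM, the normalised read count relative to library size, in the resistant libraries and 557 and 572 in the parental ones, while PAX2 and LRP2 had 0 counts in all 4. That list summed to 970 and 1429 CPM in the resistant line and 1331 and 1333 in the parental line, with 8 of 11 members tested, of which 1, CDH16, rose (14.5 and 20.3, against 4.67 and 7.46 CPM, log2 fold change 1.51, adjusted p = 0.0459 with edgeR, and 0.155 without parental replicate 1). Of 10 markers of other cells (blood, vessel and stroma) 4 were tested and summed to 32.4 and 38.7 CPM in the resistant line, against 79.1 and 76.9 in the parental line. The stromal genes DCN (1.03 and 0.233, against 11.98 and 13.3 CPM) and RGS5 (5.69 and 5.67, against 19.8 and 20.1) fell, with adjusted p of 0.0129 and 0.0103 by edgeR. CD3E and CDH5 were at 0 in every library and PTPRC had at most 1 count, and the part of these markers in the 7q results was not tested.

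Of the 583 listed 7q genes, 390 passed the filter on low counts. They were tested along with all other genes by edgeR's quasi-likelihood test, with p adjusted by the Benjamini-Hochberg method over all genes and a threshold of 0.05. Over all 12792 genes tested 2.96% were higher and 3.41% lower in the resistant line. On 7q 4 genes were higher and 20 lower. The proximal section had 0 higher and 4 lower (8.89%) of 45, the middle section 0 higher and 11 lower (7.01%) of 157, and the distal section 4 higher (2.13%) and 5 lower (2.66%) of 188. At an unadjusted p under 0.05 edgeR gave 0 higher and 16 lower genes in the proximal and 2 and 46 in the middle section. In the distal section it gave 16 and 25, and over all 12792 genes 1717 and 1738. These totals over all genes also bear on the unadjusted counts of the gene lists below. In the proximal and middle sections DESeq2 and limma-trend on TPM likewise called 0 genes higher, and DESeq2 called 8 and 17 lower. With replicate number added to the model, edgeR called 0 higher and 7 lower in the proximal section, and 1 and 29 in the middle one. On log2(TPM + 1) limma-trend called 1 of 41 lower in the proximal and 7 of 150 in the middle section, so the number of calls depends on the tool. Without resistant replicate 1 or 2 the spread came from the parental pair alone, and more 7q genes passed in both directions. The median log2 fold change of the middle section was then -0.31 and -0.40. Without parental replicate 1 or 2 fewer genes passed in both directions, and that median was -0.37 and -0.33. On 7p 84 of 204 genes were higher and 3 lower.

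The shift was broad and small for most genes. Of the tested genes 39 of 45 (86.7%) had a log2 fold change below 0 in the proximal section, 132 of 157 (84.1%) in the middle section and 95 of 188 (50.5%) in the distal section, compared with 48.5% of all genes. The median log2 fold changes of -0.38, -0.33 and -0.04 stood against 0.02 over all genes and 0.83 on 7p. Both resistant libraries lay below both parental ones for 29 genes (64.4%) of the proximal, 91 (58.0%) of the middle and 61 (32.4%) of the distal section, where the share over all genes was 29.7%. Both lay above for 1, 10 and 43 genes, where the share over all genes was 30.9%. Taken library by library, resistant replicate 1 had a median log2 difference from the parental mean of -0.44 in the proximal and -0.37 in the middle section, and resistant replicate 2 had -0.33 and -0.31. Without resistant replicate 1 the median was -0.13 in the distal section, and with library totals in place of the main scaling it was 0.04 there, when the median of all genes was 0.10.

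Along the arm the lowest medians of up to 20 neighbouring tested genes lay in the middle section. They were -0.60 from MAGI2 to C7orf63 and -0.53 from GTPBP10 to BET1, where 20 of 20 genes were below 0, and -0.49 from CASD1 to PDAP1. The other windows of the middle section lay between -0.31 and -0.13. Among them POM121C to PHTF2 had -0.17, BUD31 to TAF6 -0.24 and CNPY4 to POP7 -0.13. The first 20 genes of the arm, ZNF736 to POM121, had a median of -0.47 and were all below 0. Past the section limit the medians were -0.26 from PUS7 to IMMP2L, -0.19 from LRRN3 to TSPAN12, the window of MET, and -0.18 from ING3 to CCDC136. The next window, FLNC to PODXL, had 0.13, with 5 of 20 genes below 0, and the 6 windows beyond it lay between -0.09 and 0.13. Genes were placed by their order in a gene table of another build, so a gene near a limit may belong to the neighbouring section.

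**Figure D4:**
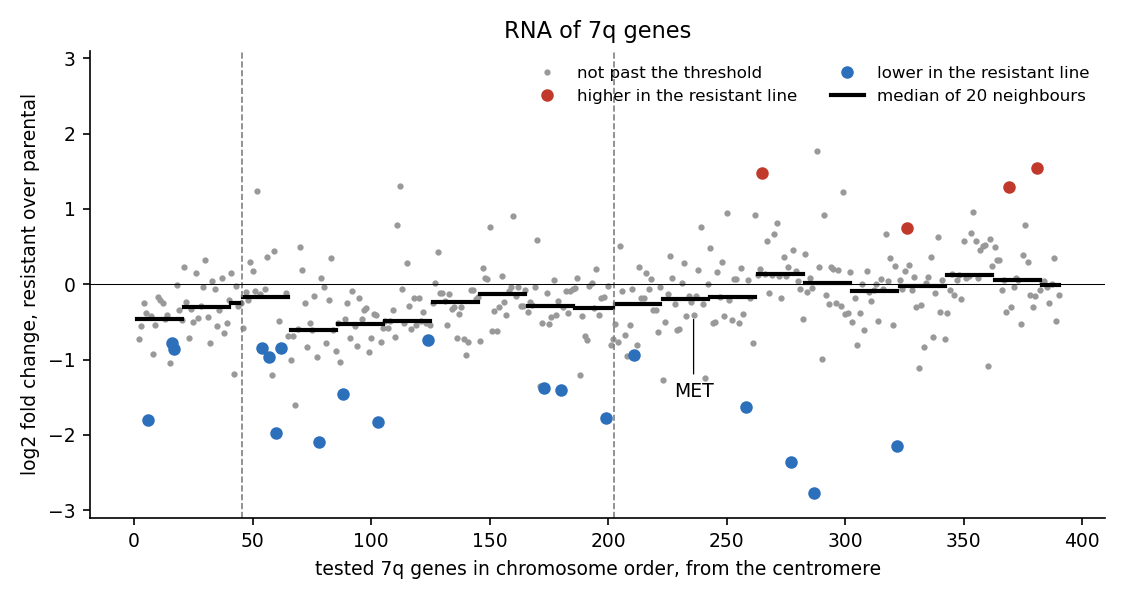
Log2 fold change of RNA, resistant over parental, for the tested 7q genes in chromosome order from the centromere, with the medians of 20 neighbouring genes as bars, section limits as dashed lines, and coloured points for genes past the threshold. The bars lie below 0 through the proximal and middle sections and around 0 in the outer distal section, and ZNF736 lies beyond the axis.

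Around MET no gene passed. MET had 499.6 and 321 CPM in the resistant libraries and 536 and 554 in the parental ones. Both resistant values were lower, and resistant replicate 1 lay nearer to the parental libraries than to resistant replicate 2. The log2 fold change was -0.41 ± 0.23 (SE), with an adjusted p of 0.301 by edgeR's quasi-likelihood test. Without resistant replicate 1 it was -0.76, with an adjusted p of 0.000697, and without resistant replicate 2 it was -0.13, with an adjusted p of 0.0595. CAV1, which encodes the main coat protein of caveolae, had 169.8 and 176 CPM, against 200.1 and 206 (log2 fold change -0.23, adjusted p = 0.316 with edgeR), and passed without either resistant replicate (adjusted p = 0.0228 without replicate 1 and 0.0147 without replicate 2) but not without parental replicate 1 (0.916) or 2 (0.945). Of 6 tested genes of the 8 in the MET neighbourhood list 0 passed with edgeR, DESeq2 or limma-trend on TPM, 1 had an unadjusted p under 0.05 with edgeR, and the median was -0.19, the value also of its 20-gene window. WNT2, a Wnt ligand gene of that neighbourhood too low to test, had 0 and 0 counts in the resistant libraries and 7 and 7 in the parental ones.

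Among ligands, SHH rose, with 6.98 and 9.79 CPM in the resistant libraries, against 2.53 and 3.20 in the parental ones (log2 fold change 1.54 ± 0.31, adjusted p = 0.0439 with edgeR). The lines did not overlap. The semaphorin gene SEMA3C, a guidance factor, had 316 and 114 CPM in the resistant libraries, against 641 and 666 in the parental ones, with a log2 fold change of -1.60 and an adjusted p of 0.0899 by edgeR. SEMA3C passed with each library left out in turn, with adjusted p between 0.000132 without resistant replicate 1 and 0.0089 without parental replicate 2, while its log2 fold change was -2.51 without resistant replicate 1 and -1.06 without resistant replicate 2. HGF, the MET ligand, was too low to test, with 0 and 0 counts in the resistant libraries and 5 and 3 in the parental ones. Of the 6 tested of 10 ligand and guidance genes 1 was higher and 0 lower, with a median of -0.03. At an unadjusted p under 0.05 edgeR gave 2 higher and 2 lower, DESeq2 called SHH higher and NAMPT lower, and limma-trend on TPM called 0. SHH did not pass without parental replicate 1 (adjusted p = 0.204), without parental replicate 2 (0.0849) or with limma-trend on log2(TPM + 1) (0.0813).

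Among transporters and enzymes ABCB1 had the smallest adjusted p of the arm. ABCB1, the efflux pump gene, had 6.40 and 6.76 CPM in the resistant libraries, against 28.9 and 27.1 in the parental ones. It fell by 2.09 ± 0.18 on the log2 scale (adjusted p = 0.00592, edgeR), and the gap between the lines was far wider than that within either. AKR1B10, an aldo-keto reductase gene, had 15.3 and 7.46 CPM, against 77.2 and 79.5, and fell by 2.77 ± 0.33 (adjusted p = 0.0129). Its close paralog AKR1B15 had 3.43 and 3.26 CPM in the resistant libraries, against 1.27 and 0.679 (log2 fold change 1.77, adjusted p = 0.0637). Reads of these near-identical genes can be divided between them, so both values are uncertain. GSTK1, a mitochondrial and peroxisomal glutathione transferase gene, rose, at 125.7 and 147 CPM in the resistant libraries and 82.0 and 80.9 in the parental ones (log2 fold change 0.74, adjusted p = 0.0439 with edgeR), but not without parental replicate 1 (0.524) or 2 (0.540). Of 15 tested of the 21 listed genes 1 rose, 2 fell and 12 did not pass, with a median of -0.09.

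Among matrix and surface genes 3 of 12 tested fell and 0 rose, with a median log2 fold change of -0.52. At an unadjusted p under 0.05 edgeR gave 0 higher and 6 lower, and DESeq2 and limma-trend on TPM also called 0 higher. TFPI2, an inhibitor of serine proteases in the matrix, had 76.4 and 111 CPM in the resistant libraries, against 326 and 341 in the parental ones, and fell by 1.83 ± 0.21 (adjusted p = 0.0120, edgeR). RELN, which encodes the secreted glycoprotein reelin, had 33.4 and 17.0 CPM, against 84.9 and 88.5, and fell by 1.78 ± 0.31 (adjusted p = 0.0319). In both genes the resistant libraries lay well below the parental ones while differing between themselves. CALD1, an actin-binding protein gene, had 146.6 and 94.2 CPM, against 235 and 246 (log2 fold change -0.998, adjusted p = 0.0589 with edgeR), and DESeq2 called it lower (adjusted p = 0.00102). With either resistant replicate left out it passed with edgeR too, at 0.000415 without replicate 1 and 0.00142 without replicate 2. It did not pass without parental replicate 1 (0.143) or 2 (0.211), or with limma-trend on log2(TPM + 1) (0.102).

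Among chromatin and signalling genes 3 of 17 tested fell and 0 rose, with a median of -0.38. At an unadjusted p under 0.05 edgeR gave 1 higher and 5 lower, and neither DESeq2 nor limma-trend on TPM called a gene of the list higher. CDK14, a cyclin-dependent kinase gene, had 7.56 and 6.84 CPM in the resistant libraries, against 18.4 and 21.0 in the parental ones (log2 fold change -1.45 ± 0.20, adjusted p = 0.0188 with edgeR, and 0.0571 without parental replicate 2). CUX1, a homeodomain transcription factor gene, had 75.1 and 48.6 CPM, against 165 and 163, and fell by 1.41 ± 0.23 (adjusted p = 0.0256). HBP1, an HMG-box repressor gene near the start of the distal section, had 31.4 and 26.0 CPM, against 56.8 and 53.5, and fell by 0.94 ± 0.17 (adjusted p = 0.0330), but not without parental replicate 1 (0.266) or 2 (0.190). The cell cycle kinase gene CDK6 and the chromatin gene KMT2E had log2 fold changes of -0.90 and -0.80 with adjusted p of 0.0674 and 0.0552 by edgeR. DESeq2 called both lower (0.00878 and 0.0180), and without resistant replicate 1 or 2 edgeR did too (0.00109 and 0.00507 for CDK6, 0.00186 and 0.00622 for KMT2E). Neither passed without parental replicate 1 or 2 (0.240 and 0.296 for CDK6, 0.419 and 0.370 for KMT2E) or with limma-trend on log2(TPM + 1) (0.201 and 0.167).

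Genes of the Williams region, a proximal stretch whose deletion causes Williams syndrome, were measured together because they are neighbours. Of 13 tested of 16 listed genes 12 had a log2 fold change below 0, with a median of -0.43 and a range of -0.77 to 0.08. With edgeR 0 passed, 6 had an unadjusted p under 0.05, all lower, and DESeq2 called 3 lower, BAZ1B, CLIP2 and EIF4H, while limma-trend on TPM called 0. EIF4H, a translation initiation factor gene, had 324 and 326 CPM in the resistant libraries, against 472 and 478 in the parental ones (log2 fold change -0.55, adjusted p = 0.0720 with edgeR). The remodelling factor gene BAZ1B had 73.4 and 56.9 CPM, against 105.4 and 108 (log2 fold change -0.71, adjusted p = 0.0684 with edgeR). Without resistant replicate 1 or 2 both passed, with adjusted p of 0.00103 and 0.00119 for EIF4H and 0.00104 and 0.00388 for BAZ1B. Without parental replicate 1 or 2 neither passed (0.711 and 0.739 for EIF4H, 0.465 and 0.521 for BAZ1B). GTF2I, a transcription factor gene with near-identical copies close by, had 243 and 187 CPM, against 244 and 253 (log2 fold change -0.21, adjusted p = 0.475 with edgeR), and passed without resistant replicate 1 (-0.41, adjusted p = 0.00353) but not without resistant replicate 2 (-0.04, 0.556) or parental replicate 1 (0.923) or 2 (0.954). Among 6 interferon-linked genes IRF5 rose and 5 did not pass, with a median of -0.39. IRF5 had 36.4 and 33.9 CPM in the resistant libraries, against 12.5 and 12.8 in the parental ones (log2 fold change 1.48 ± 0.17, adjusted p = 0.0116 with edgeR, and 0.0556 with limma-trend on log2(TPM + 1)).

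The other genes described belonged to no list. Of the proximal section, the zinc finger gene ZNF736 had 0 counts in the resistant libraries and 43 in the parental ones, which is at least 19.7-fold lower if the resistant pair is set to a floor of 3 counts in all (adjusted p = 0.0229, edgeR). ZNF117, another zinc finger gene, had 1.81 and 2.10 CPM in the resistant libraries, against 5.74 and 7.85 (log2 fold change -1.80 ± 0.31, adjusted p = 0.0311, and 0.189 without parental replicate 2). SBDS, which encodes a ribosome maturation factor and has a near-identical pseudogene, had 32.7 and 32.7 CPM, against 58.0 and 60.97 (log2 fold change -0.86 ± 0.15, adjusted p = 0.0295). TMEM248 had 74.9 and 72.1 CPM, against 127 and 126 (log2 fold change -0.78, adjusted p = 0.0304). Without parental replicate 1 or 2 neither SBDS (adjusted p = 0.266 and 0.365) nor TMEM248 (0.402 and 0.401) passed. Zinc finger genes of this cluster resemble each other, so reads of ZNF736 and ZNF117 may be divided among relatives.

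In the middle section 5 further genes fell, 4 of which the rule for named genes did not take and were named after their values were seen. CCDC146, a centriole protein gene, had 2.20 and 2.56 CPM in the resistant libraries, against 7.69 and 11.1 (log2 fold change -1.98 ± 0.31, adjusted p = 0.0235 with edgeR, and 0.0729 without parental replicate 2). YWHAG, an adaptor protein gene of the 14-3-3 family, had 167 and 127 CPM, against 269 and 261. DTX2, a ubiquitin ligase gene of the Notch pathway with a duplicated copy nearby, had 56.5 and 45.7 CPM, against 100.3 and 99.4. PTPN12, a tyrosine phosphatase gene, had 45.8 and 38.9 CPM, against 68.8 and 82.9, and ARPC1B, a subunit gene of the actin-nucleating Arp2/3 complex, had 238 and 279, against 434 and 425. The resistant libraries lay below the parental ones in all 4, by log2 fold changes of -0.85, -0.97, -0.84 and -0.73 with adjusted p of 0.0474, 0.0295, 0.0482 and 0.0460 by edgeR. None of the 4 passed without parental replicate 1 (adjusted p = 0.364, 0.198, 0.195 and 0.536) or without parental replicate 2 (0.316, 0.193, 0.522 and 0.499).

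In the distal section calls went both ways. HILPDA, a hypoxia-inducible gene of lipid droplets, had 10.2 and 15.2 CPM in the resistant libraries, against 38.1 and 40.5 (log2 fold change -1.63 ± 0.23, adjusted p = 0.0192 with edgeR). The carboxypeptidase gene CPA4 had 3.17 and 4.74 CPM, against 20.0 and 20.3 (log2 fold change -2.35 ± 0.26, adjusted p = 0.0109). TMEM178B had 83.9 and 43.1 CPM, against 294 and 270.1 (log2 fold change -2.15 ± 0.32, adjusted p = 0.0209). SMARCD3, a subunit gene of the SWI/SNF remodelling complex, rose, with 42.1 and 56.4 CPM in the resistant libraries, against 20.0 and 20.2 (log2 fold change 1.29 ± 0.20, adjusted p = 0.0231), but not without parental replicate 1 (0.0727) or 2 (0.0747). In none of these 4 genes did the lines overlap. With limma-trend on log2(TPM + 1) the calls of CDK14 (adjusted p = 0.0641), TMEM248 (0.0643), DTX2 (0.0684), PTPN12 (0.0814), YWHAG (0.0906) and HBP1 (0.118) ended. Library totals ended those of YWHAG (0.0658) and PTPN12 (0.0666), and no filter beyond 1 count that of GSTK1 (0.0522).

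**Figure D5:**
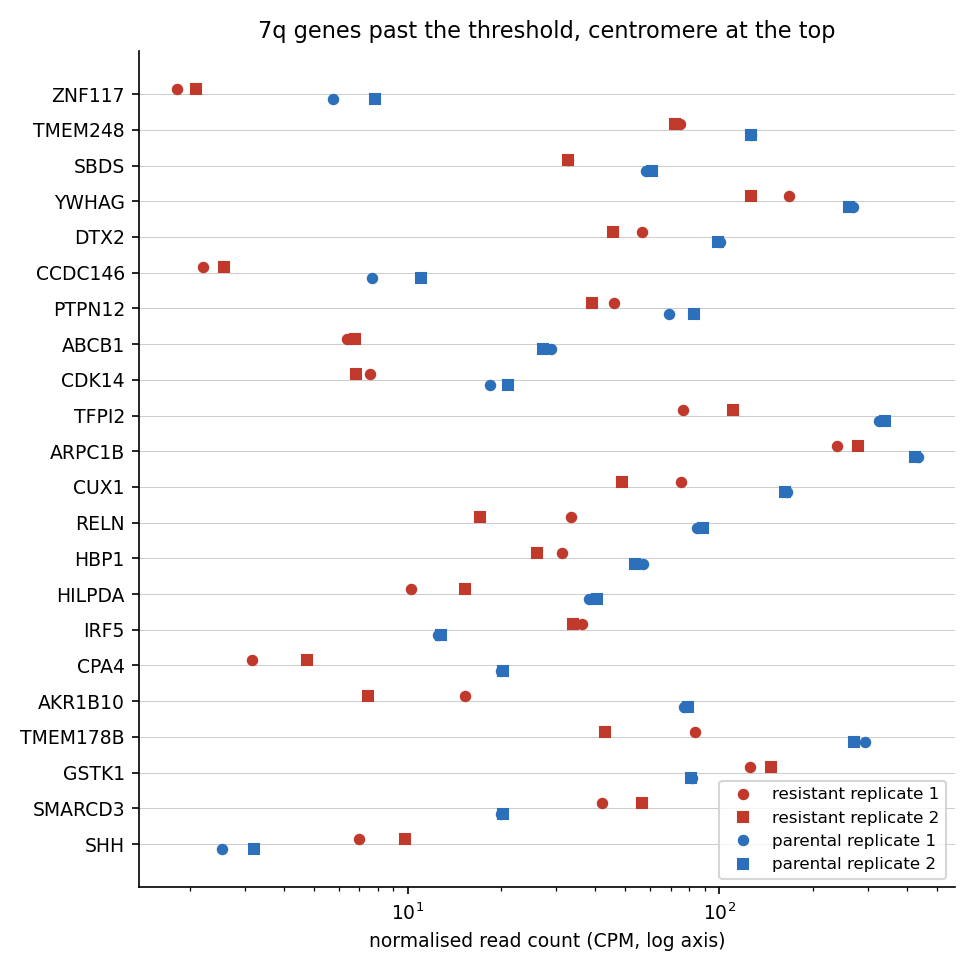
Normalised read count (x axis, CPM, log scale) of 22 of the 24 7q genes past the threshold, in order from the centromere at the top, 1 point per library. Resistant points lie right of parental ones for IRF5, GSTK1, SMARCD3 and SHH and left of them for the other genes drawn, CPA4, AKR1B10 and TMEM178B beyond IRF5 included, and ZNF736, at 0 in both resistant libraries, and 1 other gene are not drawn.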

How the data were processed

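Samples were grouped by their titles into the resistant and the parental line. STAR, RSEM and DESeq2 1.40.2 are named in the submitters' processing notes, as are GRCh38 and hg19, with no role for each. For each RNA library the deposited tables list RSEM estimated counts, and separately TPM, of 20114 genes. Fractional values (3.16%) were rounded to whole counts. Each deposited peak list gives positions and scores for 1 library. How peaks were called and scored is not given in the sources used here. Coordinates were taken as hg19, because chromosome 1 peaks end as far out as 249240417.

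Peaks were merged with Python 3.11.15 and pandas 2.3.3. Genes kept by filterByExpr (12792) were scaled by TMM and tested with edgeR 4.0.16's quasi-likelihood F test (R 4.3.3) with line as the only term, over all genes. Levels are TMM-scaled CPM. The SE of a log2 fold change was computed from the test, as its absolute value divided by the square root of the F statistic. The steps were tested on simulated data. Resistant libraries differed from each other far more than parental ones (chi-square statistic of 46.4 and 1.93 per gene). Of the tested genes 12593 matched the GRCh38.p14 table, which served only for names, order and promoters. Sections of genes begin at POM121C and PUS7.

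The RNA alternatives were library totals or DESeq2 size factors as scaling, a filter at 1 count, the Wald test of DESeq2 1.42.0, limma-trend (limma 3.58.1) on log2(TPM + 1) and log2(TPM + 0.1), and a replicate block. The peak alternatives were scores from 5 up, lists cut to their best 52367 peaks, cover of at least 50% of a region, and a merging distance of 500 bp. Each library was also left out. A crossed block and section medians were added after seeing the data.

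The rule for named genes took MET, up to 5 rises and 5 falls by size in each section, and up to 2 rises and 2 falls from each of the gene lists, or the 2 most abundant members. It took the 3 gained, lost and shared regions with the highest weakest score per section, the MET window, and the regions at the section limits. AKR1B15, BAZ1B, CALD1, CDH16, CDK6, DCN, KMT2E, PAX8, RGS5, SEMA3C, WNT2, HGF and the 4 calls ARPC1B, DTX2, PTPN12 and YWHAG were named outside it. The values of 1 gene that passed are not reported here, though the counts include it. The regions, sections and lists were chosen with earlier results of these data known.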

Additional observations from a re-analysis of the deposited data

How the results depend on the processing

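For the resistant line, gained regions in the proximal section numbered 2 with a score of 5 or more, 2 with lists of equal length, 6 with cover of 50% of a region and 0 with merging within 500 bp, in place of 1. A score of 5 or more left 46 gained and 34 lost regions in the distal section. The counts of the middle section stayed within 1.5 times under these alternatives, at 4 to 7 gained and 71 to 92 lost. Leaving out 1 library gave 3 to 35 gained and 13 to 55 lost regions in the proximal section, 20 to 55 and 110 to 345 in the middle section, and 99 to 367 and 80 to 482 in the distal section.

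Of the 7q genes, DESeq2 size factors gave 4 higher and 20 lower and library totals 5 and 18. DESeq2's Wald test gave 35 lower, limma-trend 2 higher and 12 lower on log2(TPM + 1) and 2 and 11 on log2(TPM + 0.1), and leaving out 1 library 1 to 49 higher and 11 to 147 lower. The lone remaining library of a line is then assumed to vary like the other line's pair. With a replicate block 8 were higher and 49 lower. The replicate numbers did not pair the samples, since same-numbered libraries had a correlation of deviations of -0.111. Crossed pairing gave 8 higher and 51 lower. The distal median log2 fold change changed sign with library totals, to 0.042, and the proximal and middle medians stayed between -0.50 and -0.25. Over 37 named genes 351 alternative values kept their side of the threshold, 41 passed anew, 48 no longer passed and 0 changed sign. ABCB1, AKR1B10, CPA4, CUX1, HILPDA, RELN, TFPI2, TMEM178B and ZNF736 passed under every alternative that gave them a value. The causes were not tested. Depth of the peak libraries is unknown, and 2 libraries a line limit every comparison.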
